A study of Mus musculus with 4 samples.

Results

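The forkhead genes are described here at the binding sites of phosphorylated Smad proteins in the early mouse molar. The members are the protein-coding genes of chromosomes 1 to 19 whose RefSeq symbol is Fox, a letter and a number, 41 of 20560 protein-coding genes placed there. The rule uses the name alone and no measured value, though the family was picked for description with earlier results of these data known. Molar tooth germs of wild-type CD1 embryos at embryonic stage E13.5 were dissociated into single cells and profiled by CUT&RUN, in which an antibody directs micrococcal nuclease to its target in permeabilised cells and the released fragments are sequenced. For 2 libraries the antibody recognised the phosphorylated form of Smad1/5 (pSmad1/5), which transmits BMP signals, and for the other 2 that of Smad3 (pSmad3), which transmits TGF-β and activin signals, with the same tissue, genotype and age in both. No treatment or mutant was compared among these samples. Each group is represented by 1 deposited list of the peaks common to its libraries, so no value per library was used, nothing here measures the spread between embryos or libraries, and no test between groups was made. The germ holds epithelium and mesenchyme together, and a peak cannot be assigned to either.

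Forkhead proteins share a winged-helix DNA-binding domain and act in many tissues as switches of lineage and growth. Several are tied to the signals of the TGF-β family. Foxh1 carries Smad2 and Smad4 to DNA in activin and Nodal signalling, Foxo proteins can act with Smad3 and Smad4 on cell cycle inhibitor genes and are held in the cytoplasm by Akt, and Foxf and Foxc genes mark mesenchyme that answers to Hedgehog and BMP signals. In the face, Foxc1, Foxc2, Foxf1, Foxf2, Foxd1 and Foxd2 belong to the neural crest-derived mesenchyme and Foxi3 and Foxe1 to ectoderm and its derivatives.

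There were 10741 pSmad1/5 peaks, whose median maximum signal was 16, and 7905 pSmad3 peaks, whose median was 13. The total and maximum signal of a peak are the authors' values for the SEACR call it belongs to, a call being a continuous stretch above the caller's threshold. Peaks that share those values are pieces of 1 call, and the place of the maximum can lie outside the piece that was deposited. Percentiles below rank a peak by total signal within its own list, where 50 is the middle of the list, and are never compared between antibodies. A locus is the gene body with 10 kb on each side, and a peak was counted with 1 bp inside it. A gene without a peak has no deposited call there, and weaker signal below the call was not looked at. In a small set of marker genes, peaks of pSmad1/5 and pSmad3 lay in the loci of 2 and 0 of 7 dental mesenchyme genes, 1 and 0 of 6 dental epithelium genes, 2 and 1 of 4 endothelial genes and 1 and 1 of 2 glial genes. The shares of all protein-coding genes were 28.5% and 25.5%, and the marker sets were not compared. A peak does not measure expression, so the labelled tissue could not be checked from these lists.

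Forkhead genes carried peaks about as often as other genes. Of the 41, 12 had a pSmad1/5 peak in the locus, or 29.3% (exact 95% Clopper-Pearson interval 16.1 to 45.5), against 28.5% of all protein-coding genes. A pSmad3 peak lay in 14 loci, or 34.1% (20.1 to 50.6), against 25.5%. Both background shares lie inside the intervals of the family, which cover counting error only. Peaks of both antibodies lay at 7 genes (17.1%, 7.15 to 32.1, background 14.7%), namely Foxb2, Foxj1, Foxk1, Foxn1, Foxo3, Foxo6 and Foxp1. A further 5 had pSmad1/5 alone (12.2%, background 13.8%), namely Foxh1, Foxj2, Foxn3, Foxn4 and Foxp4, and 7 had pSmad3 alone (17.1%, background 10.8%), namely Foxc2, Foxe3, Foxf1, Foxl1, Foxm1, Foxo1 and Foxs1. Alone means that the other list has no peak in the locus. Either antibody was found at 19 genes (46.3%, background 39.3%) and neither at 22 (53.7%, background 60.7%). In the upper 50% of each list by total signal the counts were 4 for pSmad1/5 and 7 for pSmad3, against 15% and 14.8% of all genes.

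Forkhead genes are short, and a short locus has less room for a peak. Their median length was 4461 bp against 17574 bp for all protein-coding genes, from 1311 bp for Foxs1 to 597405 bp for Foxp1. Among loci under 25 kb, 3 of 22 Fox genes had a pSmad1/5 peak (13.6%, 2.91 to 34.9), against 18.0% of 4512 genes of that length, and 7 of 22 a pSmad3 peak (31.8%, 13.9 to 54.9), against 15.6%. From 25 to 50 kb the counts were 4 and 3 of 9 (backgrounds 28.2% and 25.5%), and at 50 kb and over 5 and 4 of 10 (35.4% and 31.7%). Each background share lies inside the interval of its length class. The short loci with pSmad3 were Foxb2, Foxc2, Foxe3, Foxf1, Foxj1, Foxl1 and Foxs1, and Foxc2 and Foxl1 share 1 peak.

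**Figure D1:**
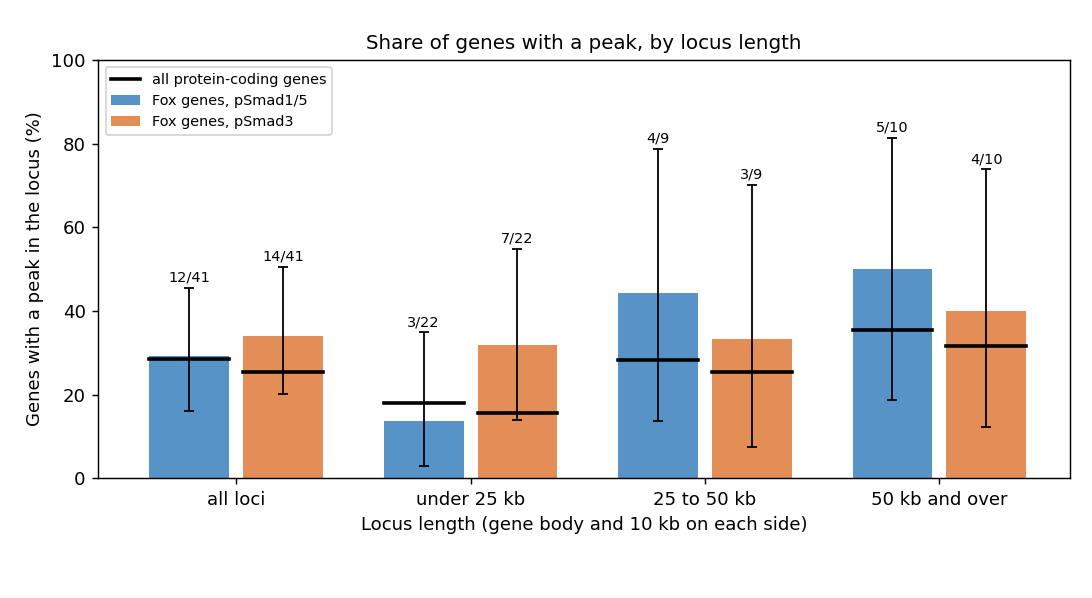
Share of genes with a peak in the locus (vertical axis, %) for all loci and by locus length (horizontal axis). Bars are Fox genes with exact 95% intervals and counts above them, black lines all protein-coding genes. Every black line falls inside the interval of its bar. Among the widest gaps are pSmad3 in loci under 25 kb, 7 of 22 against 15.6%, and pSmad1/5 from 25 to 50 kb, 4 of 9 against 28.2%.

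The peaks at forkhead loci had ordinary maxima for their lists, while most of the pSmad1/5 peaks were low by total signal. The 23 pSmad1/5 peaks, pieces of 19 calls, had maxima from 12 to 20, and the 16 pSmad3 peaks, from 15 calls, maxima from 9 to 17. None exceeded 2 times the list median, while 5.92% of pSmad1/5 and 3.76% of pSmad3 peaks in all protein-coding loci did. By total signal the median percentile was 37.8 for pSmad1/5 (3.84 to 93.5), with 17 of 23 peaks below the middle of the list, and 47.5 for pSmad3 (6.0 to 94.1), with 8 of 16 below it. The medians over all protein-coding loci were 50.6 and 49.8. The highest members were Foxo6 for pSmad1/5 and Foxs1 for pSmad3, and both belong to long calls whose maxima were near the list medians.

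**Figure D2:**
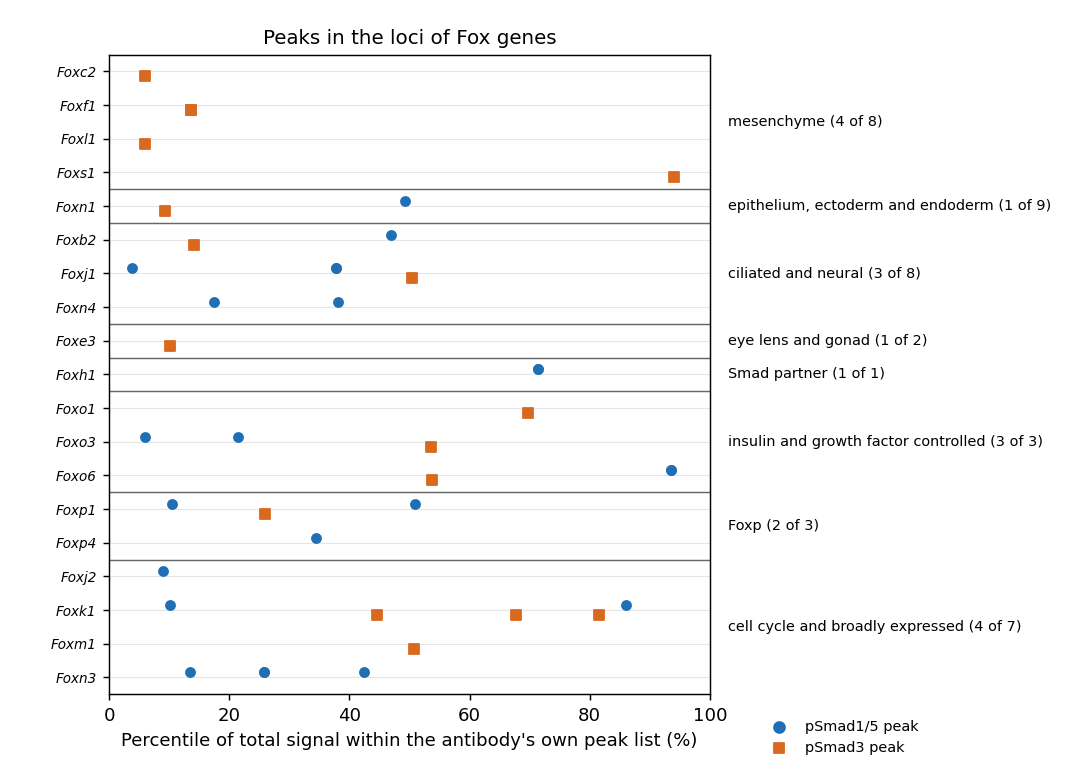
Each point is a peak in the locus of a Fox gene, placed by the percentile of its total signal within the list of its antibody (horizontal axis, %), with the 19 genes that have a peak as rows, grouped by known role, and the number of genes with a peak of all in the group at the right. Points of 1 call coincide, the 4 mesenchyme rows hold pSmad3 squares only at this flank of 10 kb, and Foxn1 is the single row of the 9 epithelium, ectoderm and endoderm genes.

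Of 8 genes grouped by their known role in mesenchyme, 4 had a pSmad3 peak in the locus and 0 a pSmad1/5 peak, against 25.5% and 28.5% of all genes. All 4 are among the 7 of the group with a locus under 25 kb, where the background is 15.6% and 18.0%. Whether the group differs from others was not tested, and with a flank of 50 kb the same 4 genes had pSmad1/5 as well. With gene bodies alone none of the 4 kept pSmad3 (17.6% of all genes had it). Among peaks nearest to the Fox gene itself only Foxc2 kept it (19.4% of all genes). In the upper 50% of the list by total signal only Foxs1 did (14.8%). Of the 6 named above for the face, Foxc2 and Foxf1 were marked, and the other marked genes were Foxl1 and Foxs1. Foxf1, a Hedgehog-responsive regulator of mesenchyme around gut and lung, Foxc2, a regulator of skeletal and vascular mesenchyme, and Foxl1, a gene of subepithelial mesenchyme, lie together on chromosome 8 in 46.3 kb (chr8:121084386-121130644, mm10). The peak between Foxc2 and Foxl1 (chr8:121120097-121124765) lay 1202 bp from Foxc2 and 2920 bp from Foxl1, and was counted for both. Its signal was low, at percentile 6.0 with a maximum of 12. The pSmad3 peaks of Foxf1 were 2 short pieces of 1 call, 3117 and 5632 bp from the gene, at percentile 13.7 with a maximum of 13. Both pieces overlap the neighbouring gene Mthfsd, the first of them an end of it, so Foxf1 is not the nearest gene to either.

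Peaks were also counted in a window that reaches 100 kb beyond the ends of this cluster and contains its loci. There were 3 pSmad1/5 peaks and 5 pSmad3 peaks, of which 1 and 3 lay between the ends of the cluster. A pSmad1/5 peak inside Mthfsd (chr8:121099059-121102005) had the highest percentile of that list here, 77.8, and lay in no Fox locus. On the Foxf1 side a pSmad1/5 peak lay 23834 bp from the gene inside Fendrr, a long non-coding RNA gene beside Foxf1 (chr8:121058287-121060552, percentile 61.6), and a pSmad3 peak 32350 bp from it (chr8:121049281-121052036, 77.8). On the Foxl1 side a pSmad1/5 peak lay 37024 bp from the gene (percentile 40.1) and a pSmad3 peak 64212 bp from it (80.0). No pSmad1/5 peak there touches a pSmad3 peak.

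The related cluster on chromosome 13 had no pSmad3 peak. Foxq1, a gene of hair and gut epithelium, Foxf2, needed for palate growth, and Foxc1, a mesenchymal regulator of skull and eye, span 252 kb (chr13:31558170-31810635). Within 100 kb of its ends there were 0 pSmad3 peaks and 2 pSmad1/5 peaks. One lay 66918 bp upstream of Foxc1 (chr13:31737003-31739728, percentile 29.0) and the other 23238 bp from Foxq1 (chr13:31533056-31534932, percentile 10.2). Foxf2 was the nearest gene of no peak within 100 kb. With its flanks the cluster had 4.42 pSmad1/5 and 0.0 pSmad3 peaks per Mb of 0.452 Mb, against 12.2 and 20.3 per Mb in the window of 0.246 Mb around Foxf1. The 5 pSmad3 peaks of that window come from 4 calls. Foxd2 and Foxe3 on chromosome 4, with the same flanks, had 9.1 and 4.55. All protein-coding loci had 5.97 and 4.54, but with flanks of 10 kb, so these are not like measures. The cluster densities rest on 0 to 5 peaks each and were not tested.

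**Figure D3:**
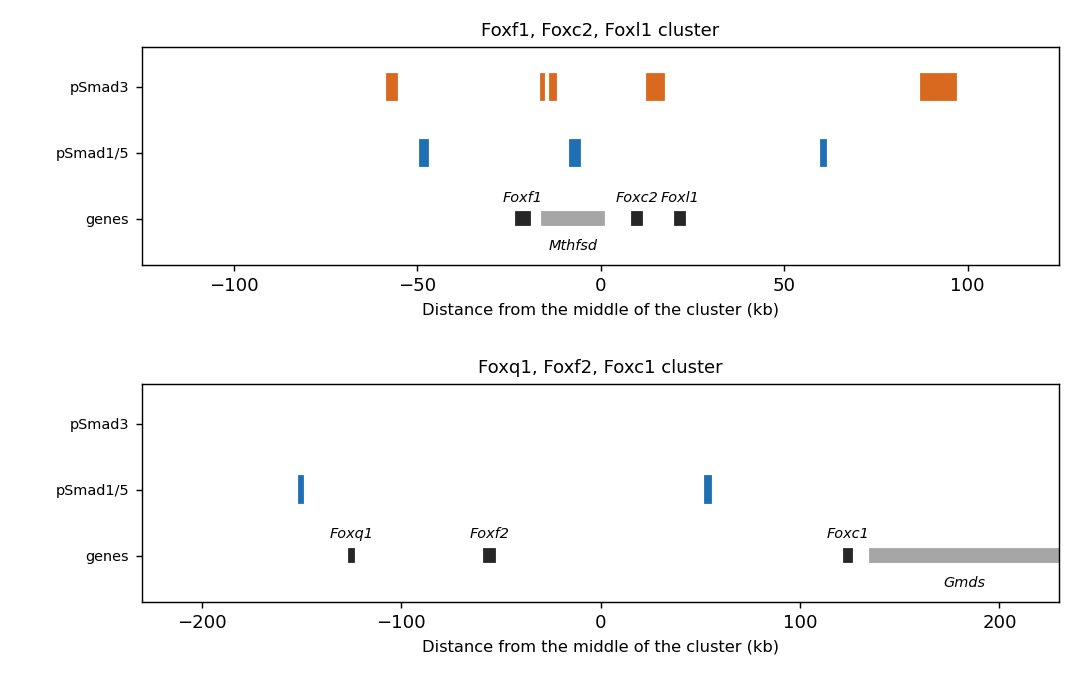
Peaks of pSmad1/5 (blue) and pSmad3 (orange) and protein-coding genes (grey, Fox genes black) against the distance from the middle of each cluster (kb), within 100 kb of its ends. The Foxf1 cluster holds 3 pSmad1/5 and 5 pSmad3 peaks, the Foxc1 cluster 2 and 0.

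The last mesenchyme gene with a peak, Foxs1, a gene of perivascular cells, rests on the edge of the counting window. Its pSmad3 peak (chr2:152912009-152921910) is the highest of the family, at percentile 94.1, but is 9902 bp long, has a maximum of 14, and comes no nearer than 9988 bp. It lies at Mylk2, a myosin light chain kinase of skeletal muscle, whose end is 728 bp away. Just outside the window, among peaks whose nearest gene was a Fox gene with none in its locus, lay a pSmad1/5 peak 10470 bp upstream of Foxa2 and a pSmad3 peak 13055 bp upstream of Foxd1. Foxd1 also was the nearest gene of a pSmad3 peak 83734 bp away, and Foxd2 of 2 pSmad1/5 peaks at 53038 and 72907 bp. Foxe3, the lens regulator next to Foxd2 on chromosome 4, had a pSmad3 peak 3955 bp upstream (chr4:114930022-114934969, percentile 10.2, maximum 11).

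All 3 autosomal Foxo genes, the effectors of insulin and growth factor signalling, had a pSmad3 peak (background 25.5%, or 31.7% for loci of 50 kb and over, the class of Foxo1 and Foxo3). In 2 of them, Foxo3 and Foxo6, there was also pSmad1/5 (28.5% and 35.4%). At Foxo1 (chr3:52268337-52350109) the pSmad3 peak ended 2126 bp upstream of the start (chr3:52263466-52266211, percentile 69.7). The plateau of its maximum, 13, ran on from 52266304 to 52268675 and covered the start. A pSmad3 peak further out lay 22962 bp upstream (percentile 42.5), and there was no pSmad1/5 peak with Foxo1 as its nearest gene. Foxo3 (chr10:42181845-42276695) had a pSmad3 peak inside the gene near its 3' end (chr10:42186695-42193469, percentile 53.5). Its pSmad1/5 peaks lay over the 3' end (chr10:42181004-42183384, percentile 21.4) and inside (chr10:42225205-42231602, 6.02), with others 14159 bp downstream and 16174 bp upstream (27.7 and 20.4). None of the Foxo3 peaks of the 2 antibodies touch, and their nearest maxima are 10436 bp apart.

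Foxo6 had the densest surroundings of the family. The gene (chr4:120267078-120287261) carried a pSmad3 peak over an end (chr4:120284281-120289765, percentile 53.8, maximum 13) and 2 pSmad1/5 pieces at and beyond the opposite end (chr4:120262361-120265728 and chr4:120267765-120269885). These pieces belong to a call that reaches at least from 120238017 to 120269885 and has the highest total signal at any Fox gene, percentile 93.5, with a maximum of 17 just above the list median. That maximum lies 24337 and 29741 bp from the edges of the pieces at the gene. The pSmad3 list placed 5 more peaks with Foxo6 as nearest gene, from 18327 to 42663 bp away, and the pSmad1/5 list a further piece of the long call at 25281 bp and a separate peak at 36732 bp. That further piece met a pSmad3 piece 26749 bp from the gene over 38 bp, the only contact between the antibodies around Foxo6.

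The Akt and insulin control of Foxo proteins was described from a list of 14 genes, which also holds Cdkn1b, a cell cycle inhibitor gene. Among these genes, 5 had a pSmad1/5 peak (background 28.5%) and 6 a pSmad3 peak (background 25.5%), 4 of them both, and 7 had neither. Akt1, a kinase that phosphorylates Foxo proteins, had 3 pSmad1/5 peaks from 1 call (percentile 88.1) and 1 pSmad3 peak (49.3). Igf1r, the IGF1 receptor, had 3 pSmad1/5 and 1 pSmad3 peaks, the strongest at percentiles 27.0 and 73.8. Akt2 and Irs1 also had both, Sgk1 pSmad1/5 alone, and Irs2 and Pdpk1 pSmad3 alone. Pik3ca, Insr, Sirt1 and Cdkn1b were among those with neither. Of 8 Hedgehog genes that act above Foxf and Foxd, 6 had a pSmad1/5 peak (background 28.5%) and 5 a pSmad3 peak (background 25.5%). Gli3 and Hhip lacked both. These backgrounds are not matched for locus length, and whether either list differs from other genes was not tested. Smo, the membrane protein that passes the Hedgehog signal into the cell, had maxima of 1009 and 763, while no Fox locus exceeded 20 and 17. Both Smo maxima exceeded 2 times the list median, as did 5.92% of pSmad1/5 and 3.76% of pSmad3 peaks in all protein-coding loci. Maxima in those loci reached 116409 for pSmad1/5 and 91291 for pSmad3. The sources give no control library, and whether such high maxima reflect Smad binding was not tested. Gli2, a transcription factor of the pathway, had 5 pSmad1/5 and 6 pSmad3 peaks with maxima up to 22 and 15.

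Foxh1, the forkhead partner of activated Smads, carried pSmad1/5 and not pSmad3 at the flank of 10 kb. Among all genes with loci under 25 kb, the class of Foxh1, 18.0% had pSmad1/5 and 15.6% pSmad3. A pSmad1/5 peak (chr15:76666169-76669571) ran over an end of the gene (chr15:76667829-76671614), and a second piece of the same call lay 8805 bp away, inside Cyhr1. The call was at percentile 71.4 with a maximum of 14, below the list median, placed 498 bp outside Foxh1. The same peak covers an end of Kifc2, a kinesin gene, so it cannot be assigned to either gene by position. No pSmad3 peak lay in the Foxh1 locus, but with a flank of 50 kb Foxh1 had pSmad3 as well. Smad2, the other activin Smad, was not profiled in these samples.

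Foxb2, a gene of the early nervous system, was the only forkhead gene covered whole by both antibodies. The pSmad1/5 peak (chr19:16871855-16874693) and the pSmad3 peak (chr19:16869922-16875040) both span the 1515 bp of the gene (chr19:16872316-16873830, minus strand), the first lying wholly inside the second over 2839 bp. Their signals were moderate to low, with percentiles of 46.9 and 14.2 and maxima of 17 and 11. The maximum of pSmad1/5 fell inside the gene and that of pSmad3 upstream of it, 1249 bp apart. Of 26 Fox genes in the RefSeq promoter table (GRCm38.p6, 250 bases before to 50 after the start), Foxb2 was the only 1 with a peak over the window, for either antibody. The shares among all 16457 protein-coding genes of the table were 3.8% for pSmad1/5 and 4.5% for pSmad3.

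The promoter window of Foxb2 is shown because both antibodies cover it. Those of Foxo1 and Foxp4 are shown because, among the other Fox genes in the promoter table, their starts lay nearest to a locus peak. The distances were 2126 and 1938 bp. The maximum of a call also covers the windows of Foxo1 (pSmad3) and Foxp4 (pSmad1/5). These were the only Fox windows under a maximum region, 1 of 26 for each antibody, where all genes of the table gave 1.01% for pSmad3 and 1.23% for pSmad1/5. Foxo1 and Foxp4 were chosen after the values were seen. Sequences run 5′ to 3′ on the strand of the gene, and capitals mark GTCT on either strand (GTCT or AGAC), the minimal Smad box.
Foxb2 (chr19:16873781-16874080, minus strand): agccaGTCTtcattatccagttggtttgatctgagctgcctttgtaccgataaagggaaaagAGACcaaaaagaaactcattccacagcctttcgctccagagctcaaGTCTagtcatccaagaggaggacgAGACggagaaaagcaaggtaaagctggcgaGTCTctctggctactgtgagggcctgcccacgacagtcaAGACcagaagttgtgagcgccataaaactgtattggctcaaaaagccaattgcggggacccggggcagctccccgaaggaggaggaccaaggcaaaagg
Foxo1 (chr3:52268087-52268386, plus strand): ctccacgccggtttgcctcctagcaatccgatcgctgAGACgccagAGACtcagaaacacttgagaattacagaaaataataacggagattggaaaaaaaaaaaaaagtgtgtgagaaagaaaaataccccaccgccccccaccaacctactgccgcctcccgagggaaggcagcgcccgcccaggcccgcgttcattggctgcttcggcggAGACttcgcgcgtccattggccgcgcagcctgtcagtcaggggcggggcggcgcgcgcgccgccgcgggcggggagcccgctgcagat
Foxp4 (chr17:47924583-47924882, minus strand): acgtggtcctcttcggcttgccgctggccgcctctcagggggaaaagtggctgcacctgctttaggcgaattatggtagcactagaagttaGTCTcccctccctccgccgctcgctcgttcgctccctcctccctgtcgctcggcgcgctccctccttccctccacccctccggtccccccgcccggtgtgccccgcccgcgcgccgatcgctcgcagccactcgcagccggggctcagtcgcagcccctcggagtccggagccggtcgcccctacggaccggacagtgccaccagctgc

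Foxb2 held 6 matches of GTCT, Foxo1 3 and Foxp4 1, with a median of 2 over all 32851 windows of the table. As many as 6 were found in 3.52% of all windows, as many as 3 in 39.6% and at least 1 in 88.0%. GTCT was added to the search after the other motifs were seen. None of the 3 windows held the palindrome GTCTAGAC (0.213% of all windows), CAGACA (21.0%), the GC-rich box GGCGCC (11.9%), the forkhead core TGTTTAC (3.65%) or AATNNACA, the Foxh1 type (12.2%), each searched on both strands; the palindrome and CAGACA hold GTCT or AGAC within them. Among the 30 windows of the 26 Fox genes, CAGACA was found in 4, GGCGCC in 5, AATNNACA in 2, TGTTTAC in 1 and GTCTAGAC in 0. GTCT was found in 25 of them (83.3%, against 88.0% of all windows), with a median of 1.5 matches against 2. These are matches of letters and not measured sites. Fox windows were rich in G and C, with a median of 63.5% against 52.7% over the table, but Foxb2 had 51.7%, Foxo1 61.3% and Foxp4 70.3%.

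Foxp1 and Foxp4, repressors that pair through a leucine zipper, carried pSmad1/5 peaks inside their bodies. Foxp4 (chr17:47867133-47924632) had 1 (chr17:47919928-47922694), 1938 bp inside the start, at percentile 34.5 with a maximum of 12. That maximum is a flat plateau of 6948 bp that runs across the start. Foxp1 (chr6:98925342-99522746) had pSmad1/5 peaks at chr6:98935151-98937675 (percentile 50.9) and chr6:99289153-99291088 (10.5) and a pSmad3 peak at chr6:98985437-98988676 (26.0). The nearest pSmad1/5 and pSmad3 peaks in Foxp1 are 47761 bp apart. Foxp2, of similar length, had no peak.

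Among broadly expressed members Foxk1, a regulator of muscle progenitors and metabolism, had maxima of both antibodies close together inside the gene. Foxk1 (chr5:142401497-142462015) had 3 pSmad3 peaks inside the gene, the most of any Fox gene for that antibody, at percentiles 67.8, 81.6 and 44.6. The third (chr5:142449194-142453310) begins 287 bp after a pSmad1/5 peak (chr5:142447988-142448906, percentile 10.1) ends. The maxima of those calls are 169 bp apart, pSmad1/5 at 142453732 and pSmad3 at 142453901, with values of 20 and 14 against list medians of 16 and 13. Both positions lie outside the deposited pieces, by 4826 and 591 bp. A second pSmad1/5 peak 7290 bp past the gene (percentile 86.0) lies in Ap5z1 and is 1 of 4 pieces of a call. Foxk2, the paralogue, had none.

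Foxm1, which drives genes of mitosis, had a pSmad3 peak inside the gene (chr6:128366481-128369985, percentile 50.8). Its maximum of 9 is a plateau of 3318 bp and stands at percentile 1.11 of the maxima in the list. Foxn3, a checkpoint regulator, had 4 pSmad1/5 peaks from 3 calls spread over its 373587 bp, at percentiles from 13.4 to 42.4 with maxima of 13 and 14. Foxj2 had a pSmad1/5 peak of 204 bp inside the gene (chr6:122824588-122824791, percentile 8.94), whose maximum of 17 lay 3170 bp from the piece and 1229 bp past the start. Foxj3 had no peak, and Foxn2 was nearest to a pSmad3 peak 89351 bp away.

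Foxj1, the master regulator of motile cilia, had 3 pSmad1/5 peaks, the most of any Fox locus under 25 kb. The 2 pieces of 1 call (chr11:116329765-116332182 and chr11:116333117-116338515) covered both ends of the gene (chr11:116330704-116335499) at percentile 37.8, and another peak lay 6553 bp away at percentile 3.84. The larger piece also reaches an end of Rnf157, a ubiquitin ligase gene. The pSmad3 peak of Foxj1 (chr11:116340515-116345928, percentile 50.4) lies in Rnf157, 5016 bp from Foxj1, and its maximum of 17 is the highest of pSmad3 at any Fox locus. Foxn4, a gene of retinal and spinal interneurons, had a pSmad1/5 peak inside (percentile 17.5) and another 4354 bp downstream (38.1) that lies in Acacb. Foxb1, Foxd3, Foxd4 and Foxr1 were among the members of this group with no peak in the locus.

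Of 9 epithelial, ectodermal and endodermal members, Foxn1, the regulator of thymic and hair epithelium, was the 1 with a peak of either antibody. The other 8 had neither, as did 60.7% of all genes, and 6 of them have loci under 25 kb, where 18.0% and 15.6% of genes have pSmad1/5 and pSmad3. The pSmad1/5 peak of Foxn1 (chr11:78344384-78349389, percentile 49.2, maximum 20) and pSmad3 peak (chr11:78346002-78349978, percentile 9.27, maximum 16) overlap by 3388 bp but lie 8188 and 7599 bp downstream of it, at Unc119. Those without a peak in the locus were Foxa1, Foxa2, Foxa3, Foxe1, Foxi1, Foxi2, Foxi3 and Foxq1. Foxi1 and Foxi2 were the nearest genes of a pSmad3 peak at 51803 and 43880 bp, and Foxi3, the ectodermal gene best known from teeth and hair, of none.

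**Figure D4:**
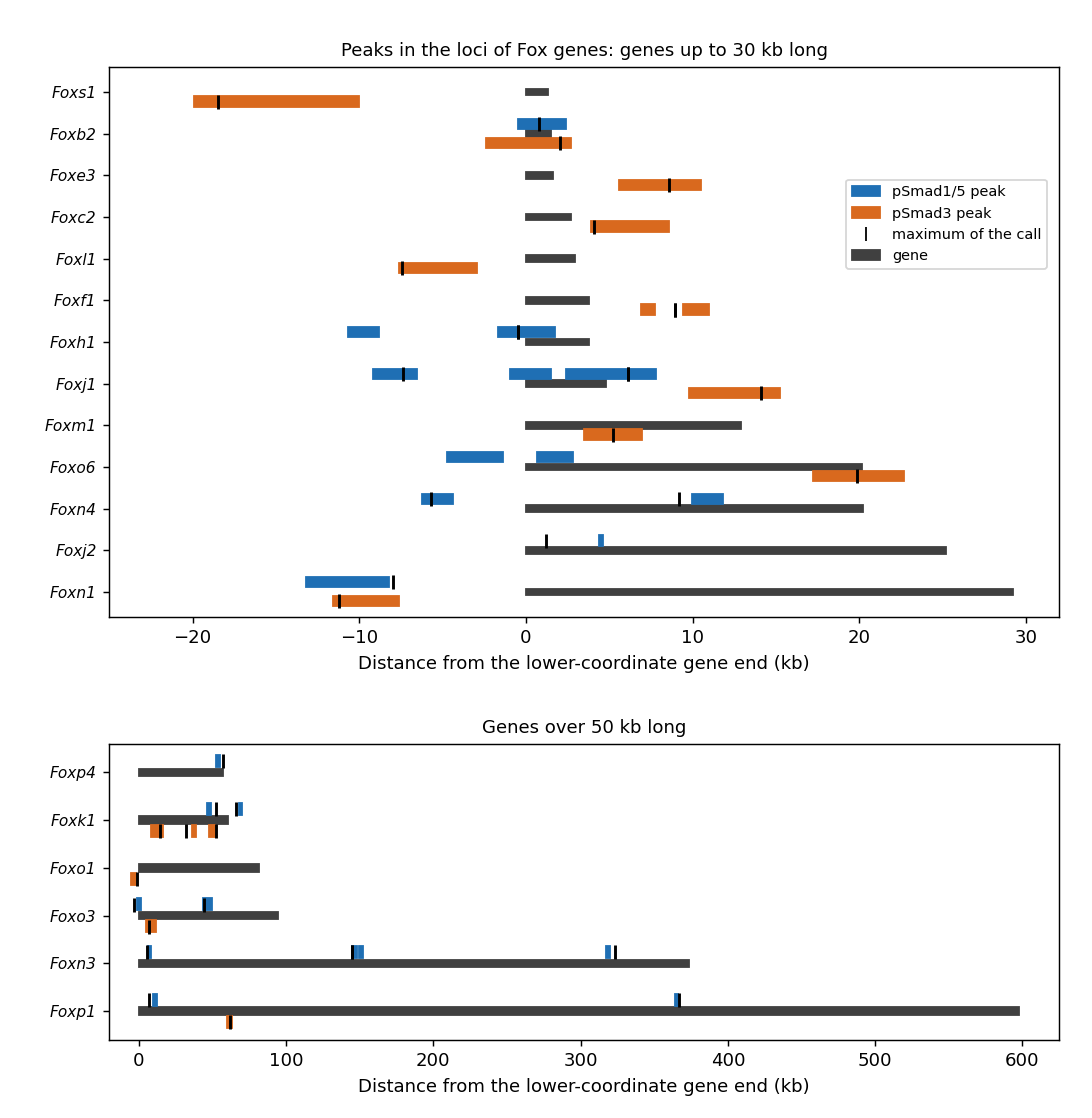
Peaks in the loci of the 19 Fox genes with any, against the distance from the lower-coordinate end of the gene (kb), with genes up to 30 kb above and genes over 50 kb below. Blue bars are pSmad1/5 peaks, orange bars pSmad3 peaks, dark bars genes, and ticks the middle of the maximum region of a call where it falls in the plot. The antibodies coincide at Foxb2 and Foxn1. In Foxk1 the nearest maximum regions of the antibodies lie 169 bp apart, outside the deposited peaks, and the bars do not touch.

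Although 7 genes had both antibodies, the peaks themselves coincided at 2. At Foxb2 and Foxn1 a pSmad1/5 peak overlapped a pSmad3 peak, so 2 of 23 pSmad1/5 peaks were shared (8.7%, exact interval 1.07 to 28.0) and 2 of 16 pSmad3 peaks (12.5%, 1.55 to 38.3). In the loci of all protein-coding genes the shares were 20.3% and 22.2%, inside those intervals. At the other 5 genes the peaks lay apart, by 287 bp at Foxk1, 1999 bp at Foxj1, 3310 bp at Foxo3, 14395 bp at Foxo6 and 47761 bp at Foxp1. With each call taken from its lowest to its highest peak or maximum, a choice made with the data in view, 4 of 19 pSmad1/5 calls (21.1%, all calls 23.9%) and 3 of 15 pSmad3 calls (20.0%, all calls 27.9%) met the other antibody.

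Some of these peaks can be assigned to a neighbour as well as to the Fox gene, and the place of the peaks decides how firm the counts are. Of 23 pSmad1/5 peaks 12 lay inside the gene, 6 outside, 4 over a gene end and 1 over the whole gene. The 17 places of the 16 pSmad3 peaks were 6 inside, 9 outside, 1 over an end and 1 over the whole gene. Counting gene bodies alone left 11 genes with pSmad1/5 and 6 with pSmad3, against 19.2% and 17.6% of all genes. In 6 of 23 and 6 of 17 cases another protein-coding gene had the nearest end, and at Foxf1, Foxl1, Foxn1 and Foxs1 this held for every locus peak. With peaks nearest to the Fox gene itself, also chosen with the data in view, 11 genes had pSmad1/5 and 9 pSmad3, against 21.9% and 19.4% of all genes.

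By nearest gene the family had higher shares than all genes, and also more space around each gene. Within 100 kb, 18 of 41 were the nearest protein-coding gene of a pSmad1/5 peak (43.9%, 28.5 to 60.3), against 26.2% of all genes, and 17 of a pSmad3 peak (41.5%, 26.3 to 57.9), against 23.1%. Both background shares lie below the intervals, which cover counting error only and take no account of the space around a gene. These counts depended on the rule. In the upper 50% of the list by total signal, 5 genes were nearest to a pSmad1/5 peak (12.2%), below the 13.3% of all genes, and 9 to a pSmad3 peak (22.0% against 13.2%). Within 50 kb, 15 genes were nearest to a pSmad1/5 peak (36.6% against 24.5%) and 11 to a pSmad3 peak (26.8% against 21.6%). When lncRNA genes could be nearest, the counts were 13 (31.7% against 21.5%) and 10 (24.4% against 19.1%). The stretch of chromosome to which a gene is nearest, within the same limit, had a median of 106 kb for Fox genes and 44.3 kb for all. Per Mb of that stretch there were 6.27 pSmad1/5 peaks near Fox genes and 5.9 near all genes, and 5.84 and 4.46 pSmad3 peaks. Per Mb of locus the densities were 7.66 and 5.97 for pSmad1/5 and 5.33 and 4.54 for pSmad3. In this count Foxb1 had a pSmad3 peak at 65295 bp and Foxd3 a pSmad1/5 peak at 70669 bp. In all, 10 genes without a peak in the locus were the nearest gene of one, while 12 genes were not, among them Foxa1, Foxa3, Foxd4, Foxe1, Foxf2, Foxi3, Foxj3, Foxk2, Foxl2, Foxp2 and Foxr1.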

How the data were processed

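Each antibody has 1 peak list of 2 libraries. Per the submitters' processing notes, Bowtie2, SAMtools, bedtools, SEACR and deepTools were used with mm10; the sources used here give no versions, settings, control libraries or way of joining libraries. The deposited values per peak are the total and the maximum coverage signal of its SEACR call, scaled by the authors in a way not stated, so depth is unknown. Of the pSmad1/5 and pSmad3 peaks, 27.1% and 70.0% contain their maximum, so the signal describes the call.

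Peaks were placed on RefSeq genes of GRCm38.p6 (the assembly of mm10), without genes in the first 3 Mb, with Python 3.11.15, pandas 2.3.3 and SciPy 1.17.1. Placement was tested on simulated peaks. Strand came from the RefSeq promoter table for 26 Fox genes; exons were not used. Intervals are exact 95% Clopper-Pearson intervals. By rule, every Fox locus peak is described and the Fox genes are named, except that some items are not reported here; groups, lists and members were chosen with earlier results of these data known. Alternatives varied the locus, the counting rule and the peak list.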

Additional observations from a re-analysis of the deposited data

How the results depend on the processing

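With 1 deposited list per antibody, leaving out a library was not possible, and no paired analysis was possible because no value per library was used. Of 45 alternatives, 31 kept the count or percentile within 1.5 times. Some of these could not move. No peak in a Fox locus had a maximum over 2 times the list median, so leaving out such peaks could not change the locus counts. The counts followed the width of the locus and the list. With a flank of 50 kb, 22 genes had pSmad1/5 (background 49.4%) and 14 both (33.3%). Gene bodies alone left 6 with pSmad3. Within 5 kb of either gene end, 9 had pSmad3 (16.1%) and 3 both (6.66%). The upper 50% of each list by total signal left 4 genes with pSmad1/5 (Foxh1, Foxk1, Foxo6 and Foxp1, background 15%), 7 with pSmad3 (14.8%) and 2 both (6.55%). It left 5 and 9 genes as nearest gene of a pSmad1/5 and a pSmad3 peak (13.3% and 13.2%). Of pSmad3, 11 were nearest within 50 kb (21.6%), and 10 when lncRNA genes could be nearest (19.1%). The 2 alternatives chosen with the data in view left 9 genes with pSmad3 when a peak had to be nearest to the Fox gene itself, and gave 4 shared pSmad1/5 calls when calls were taken whole. Wider loci, fewer peaks or more competing genes move such counts by construction. Depth is unknown, so no limit on missed peaks can be given.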

Other observations

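The 3 forkhead genes of the X chromosome, Foxp3, a regulator of T cells, Foxo4 and Foxr2, had 0 peaks of either antibody in the locus. They were left out of all counts above.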
